A study of Mus musculus with 2 samples.

Results

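Gene expression was measured in cultured RAW246.1 mouse cells, which the labels call macrophages, and 10 noncoding genes are described here: the small nucleolar RNA host genes Snhg1, Snhg3, Snhg5, Snhg6, Snhg7, Snhg8, Snhg12 and Gas5, and the nuclear long noncoding RNA genes Malat1 and Neat1. The set was chosen by gene symbol, with the processed signals of these 2 arrays already known, and every non-control probe whose accession RefSeq assigns to one of them was used. Of the 10 genes, 8 had such a probe, against 20659 named genes on the whole array. Gas5 and Snhg8 had no probe matched by accession and were not analysed here. Each of the 8 measured genes was represented by a single probe printed at a single spot, so no 2 probes of a gene could be set against each other.

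The study held 2 one-colour Cy3 arrays from cells grown in DMEM, 1 of cells given synthetic miR-122, the abundant liver microRNA, with 5 μg/mL as the dose on the labels, and 1 of cells given PBS as the mock treatment. Each group therefore had 1 array, and no difference given here has a p-value, a standard deviation between cultures or a replicate check. The labels conflict in places: the title of the miR-122 sample says without miR-122, and both samples carry 1 treatment text. Directions rest on the source name and the description. The comparison bears on what miR-122 does to gene expression in macrophages, and the cells were a cultured line rather than alveolar macrophages. Both arrays lay on the same slide at different positions, so treatment and array position cannot be told apart.

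The arrays carried 43020 non-control spots. Of these, 70.1% were well above background on the miR-122 array and 71.9% on the PBS array, and none was saturated. Before scaling, the 75th percentile of the log2 signal differed by -0.28 and the median by -0.10, miR-122 minus PBS. Of 13 macrophage markers 12 had a probe, and 11 of these were well above background on the miR-122 array and 10 on the PBS array, with summed unscaled signals of 68234 intensity units on the miR-122 array and 100339 on the PBS array. After scaling, 6 of the 12 markers were higher and 6 lower on the miR-122 array, with a median difference of 0.11. The 6 higher ones were Fcgr1 (3.34), Cd163 (2.94), Mertk (1.32), Spi1 (0.58), Ptprc (0.45) and Cd14 (0.25). The count and the median used no background filter and so include Cd163 and Mertk, which did not clear background on both arrays. Without these, the lower markers outnumber the higher ones. The 6 lower ones were Itgam (-0.85), Csf1r (-0.78), Lyz2 (-0.71), Adgre1 (-0.58), Tyrobp (-0.25) and Marco (-0.03). Csf1r, Adgre1, Itgam, Cd14, Lyz2 and Tyrobp were well above background on both arrays, while Mertk was below background on both and Cd163 on the PBS array. The summed signals of 8 lists of markers of other cell types lay between 57.2 and 2084 on the miR-122 array and between 63.8 and 2230 on the PBS array. In a bulk sample, fewer cells of a type and less RNA per cell cannot be told apart.

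Small nucleolar RNAs guide chemical modification and processing of ribosomal and spliceosomal RNAs, and in mammals most are cut out of introns of a host transcript. In the Snhg genes the spliced exons encode no known conserved protein, and many of these transcripts begin with a run of pyrimidines, are translated briefly and are removed by nonsense-mediated decay. A host RNA level therefore reflects both transcription and decay. Malat1 RNA is retained in nuclear speckles, which hold splicing factors, and Neat1 RNA is the scaffold of paraspeckles, nuclear bodies that retain RNAs and proteins.

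The annotated start regions are shown because they are a shared feature of the host genes that the choice of genes did not use. RefSeq start regions of build GRCm38.p6 were at hand for 6 of the 8 measured genes; Neat1 and Snhg6 had no entry. Each line below gives 100 bases on the strand of the gene, with the annotated start at base 51. Capitals mark TATAA or its reverse complement TTATA, and any run of at least 7 bases that are C or T between 20 bases before and 30 bases after the start, where it was the longest.
Snhg1: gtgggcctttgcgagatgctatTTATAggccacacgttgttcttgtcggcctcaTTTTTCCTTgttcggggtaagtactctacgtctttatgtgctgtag
Snhg3: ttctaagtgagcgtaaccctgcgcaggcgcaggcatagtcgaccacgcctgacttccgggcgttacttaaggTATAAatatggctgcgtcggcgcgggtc
Snhg5: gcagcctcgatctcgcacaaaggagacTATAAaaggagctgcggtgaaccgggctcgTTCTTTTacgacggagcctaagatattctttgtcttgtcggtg
Snhg7: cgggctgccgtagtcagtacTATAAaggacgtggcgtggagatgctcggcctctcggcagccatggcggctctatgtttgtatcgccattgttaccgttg
Snhg12: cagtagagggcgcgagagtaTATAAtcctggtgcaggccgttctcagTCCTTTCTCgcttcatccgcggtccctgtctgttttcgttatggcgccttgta
Malat1: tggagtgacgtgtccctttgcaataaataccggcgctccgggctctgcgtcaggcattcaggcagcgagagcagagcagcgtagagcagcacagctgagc
The Snhg1 window is chr19:8723437-8723536 on the forward strand, and that of Snhg3 is chr4:132353637-132353736 on the reverse strand. That of Snhg5 is chr9:88522848-88522947 on the reverse strand, and that of Snhg7 is chr2:26640195-26640294 on the reverse strand. That of Snhg12 is chr4:132308628-132308727 on the forward strand, and that of Malat1 is chr19:5802623-5802722 on the reverse strand.

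TATAA or TTATA was present in the windows of Snhg1, Snhg3, Snhg5, Snhg7 and Snhg12 and absent from that of Malat1, 5 of 6 windows, while 9.26% of 32851 RefSeq windows of the same length held it on either strand. In Snhg3 the match lay after the annotated start, and in Snhg1 it was on the other strand. A run of 7 or more C or T bases was found in Snhg1, Snhg5 and Snhg12, with lengths of 9, 7 and 9 bases, and in 28.6% of all windows. In Snhg1 and Snhg5 the run lay after the annotated start, and in Snhg12 it spanned the start. Snhg7 had a longest run of 6, Snhg3 of 5 and Malat1 of 4 bases. Both motifs were chosen after the windows were read. The hexamer CACGTG, the E-box bound by Myc, was in the 300-base promoter of 0 of these 6 genes and in 7.15% of all promoters.

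Every measured gene was well above background on both arrays, and the deposited processed signal, given here before any scaling between arrays, was lower on the miR-122 array for all 8. Snhg1, which hosts several box C/D small nucleolar RNAs, had a signal of 107 intensity units on the miR-122 array and 175 on the PBS array. Snhg5, the host of U50, a methylation guide for the large ribosomal RNA, had 87.4 on the miR-122 array and 167 on the PBS array. Snhg7, which in human hosts box H/ACA RNAs, had 98.3 on the miR-122 array and 178 on the PBS array. These 3 probes were the dimmest of the set, at 7.25 to 8.84 times the lowest signal that cleared background on the miR-122 array and 15.5 to 16.5 times that on the PBS array.

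Snhg3, the host of U17, a box H/ACA RNA needed for processing of the ribosomal precursor, had a signal of 1027 on the miR-122 array and 1592 on the PBS array. Snhg6, a host of a box C/D RNA, had 765 on the miR-122 array and 1084 on the PBS array. Snhg12, whose introns hold mainly box H/ACA RNAs, had 771 on the miR-122 array and 823 on the PBS array. The Snhg12 values were within the error the scanner software assigns to each spot. Before scaling, those of Snhg3 and Snhg6 were apart by more than both errors added. Malat1 had 4959 on the miR-122 array and 5858 on the PBS array, and Neat1 had 3496 on the miR-122 array and 5329 on the PBS array. The software error was at most 10.4% of a signal. Different probes bind with different strength, so these signals order the arrays for each gene and not the genes.

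**Figure D1:**
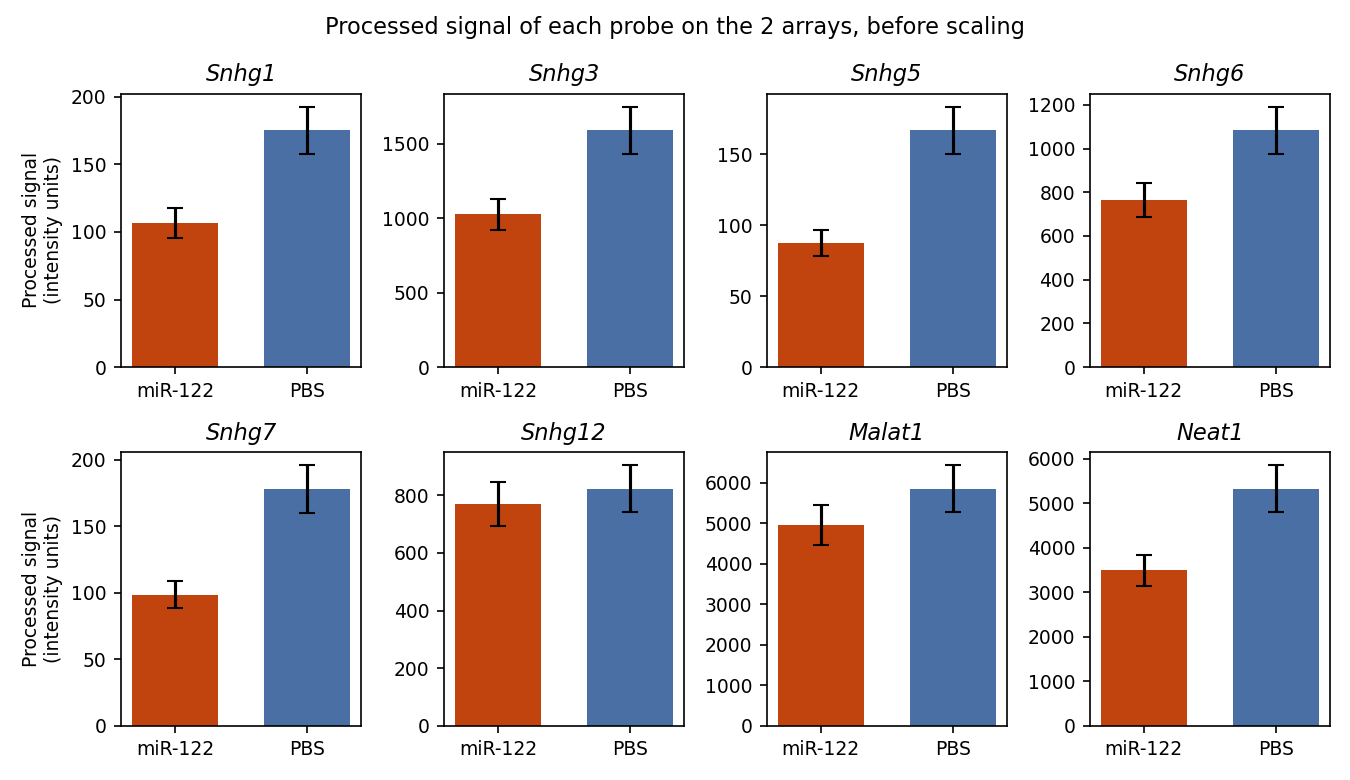
Processed signal in intensity units of the probe of each measured gene on the miR-122 array (left bar) and the PBS array (right bar), before scaling, with the error assigned by the scanner software. All 8 bars are lower on the miR-122 array. As a ratio of the 2 signals, Snhg5 differs most (87.4 against 167) and Snhg12 least (771 against 823).

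The signal of the array as a whole was also lower with miR-122. Without scaling, 69.5% of the 15018 named genes that cleared background on both arrays were lower on the miR-122 array, with a median log2 difference of -0.18, and the 8 noncoding genes had a median of -0.62. Levels were therefore taken as the log2 signal minus the 75th percentile of all probes of the array, and differences, miR-122 minus PBS, are on that scale from here on unless stated. Since the genes were proposed with these differences known, the values describe them and test nothing.

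After scaling, 6 of the 8 genes were lower and 2 were higher on the miR-122 array, with a median difference of -0.34, while 39.7% of the 15018 genes were lower and the median of all genes was 0.09. None of the 8 was 2-fold lower, against 1.78% of all genes, and none was 2-fold higher, against 4.57%. With a limit of 1.5-fold, Snhg5 alone was lower, 1 of 8, against 5.99% of all genes. That count was 0 with normexp, 3 with median scaling and 5 without scaling. No gene of the set was at least 1.5-fold higher, against 12.1% of all genes. The spread of differences between probes of a single gene, pooled over 3575 genes with several probes, had a standard deviation of 0.30. By this yardstick 5 of the 8 genes were lower by more than the spread, against 15.4% of all genes, and 0 were higher by more than it, against 28.7%. The yardstick covers technical spread between probes and leaves out any spread between cultures.

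The 6 host genes spanned -0.66 to 0.18 and had a median of -0.40. Snhg5 had a level of -1.99 on the miR-122 array and -1.34 on the PBS array, a difference of -0.66 or 1.58-fold lower, and 4.76% of all genes had a smaller difference. Snhg7 had a level of -1.82 on the miR-122 array and -1.24 on the PBS array, a difference of -0.58 that fell just short of the 1.5-fold limit at 1.495-fold lower. Snhg1 had a level of -1.71 on the miR-122 array and -1.27 on the PBS array, a difference of -0.44 or 1.36-fold lower. The error of each of these differences from the software's spot errors was 0.21, and the differences were -2.11 to -3.14 times that error. The 3 genes with the most negative differences were thus the 3 with the dimmest probes.

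With the normexp background correction, which adds an offset of 50 intensity units and so draws dim probes together, the differences of Snhg5, Snhg7 and Snhg1 were -0.31, -0.39 and -0.27. Snhg5, at -0.66 without it, moved the most, and 0 genes then passed 1.5-fold. The genes of similar level had median differences near 0, at 0.08 for Snhg5 and 0.01 for Snhg7 and Snhg1, when all genes were cut into 10 bins of equal size by mean level. In these bins, 5.46% of genes had a smaller difference than Snhg5, 9.45% than Snhg7 and 14.2% than Snhg1.

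Snhg3 had a level of 1.56 on the miR-122 array and 1.92 on the PBS array, a difference of -0.36 or 1.28-fold lower, and normexp gave -0.39. Snhg6 had a level of 1.14 on the miR-122 array and 1.36 on the PBS array. Its difference of -0.23, with a software error of 0.20, was within the spread between probes. Both were brighter than the genes above, and their differences changed little with the background correction. Snhg12 stood apart from the other hosts with a level of 1.15 on the miR-122 array and 0.97 on the PBS array, a difference of 0.18 that was within the spread. By RefSeq order, Snhg12 and Snhg3 lie on the same chromosome with 6 annotated genes between them, and the 2 differed in sign.

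Malat1 and Neat1 are neighbours in the genome and gave unlike values. Neat1 had a level of 3.33 on the miR-122 array and 3.66 on the PBS array, a difference of -0.33 or 1.26-fold lower, and 5.53% of the genes in its level bin had a smaller difference. Malat1 had a level of 3.83 on the miR-122 array and 3.80 on the PBS array, a difference of 0.04, with 39.5% of that bin below it. The difference of Malat1 turned to -0.14 with median scaling, -0.12 with quantile normalization and in the authors' values, and -0.01 with loess, so it has no settled sign. More than 1 RefSeq transcript of Neat1 exists, and the files do not say where in them the probe lies, so isoforms were not separated.

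**Figure D2:**
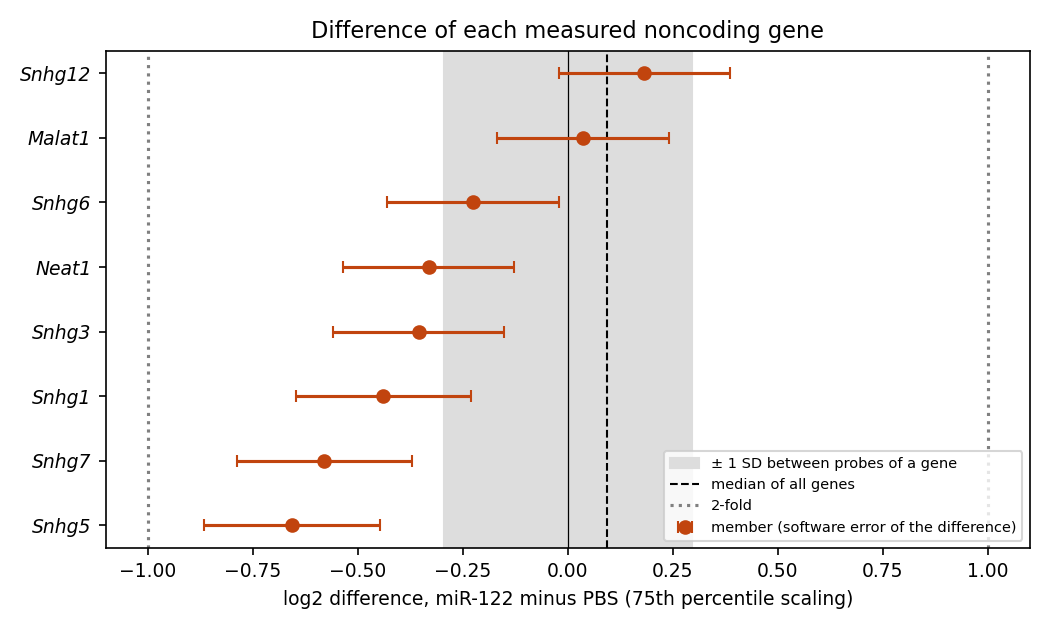
Log2 difference, miR-122 minus PBS after 75th percentile scaling, of each measured noncoding gene, with the error of the difference from the software's spot errors. The grey band is 1 SD (0.30) between probes of a gene, the dashed line the median of all genes (0.09) and the dotted lines 2-fold; Snhg5, Snhg7, Snhg1, Snhg3 and Neat1 lie below the band and none reaches 2-fold.

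The direction of the individual genes held across the ways of scaling, apart from Malat1 and, without scaling, Snhg12. Snhg1, Snhg3, Snhg5, Snhg6, Snhg7 and Neat1 kept a negative difference in all 12 settings, counting the one reported and the one without scaling. Across these settings Snhg5 ranged from -0.93 to -0.31, Snhg1 from -0.72 to -0.27 and Snhg6 from -0.50 to -0.22. Snhg7 ranged from -0.86 to -0.39, Snhg3 from -0.63 to -0.35 and Neat1 from -0.61 to -0.33. The median of the 8 genes minus the median of all genes lay between -0.50 and -0.36 in the 12 settings. Scaling by a percentile or the median, and no scaling, shift all genes alike, so that gap stayed at -0.44 by construction. Quantile normalization, loess and normexp can change the gap, and it was -0.40, -0.36 and -0.40 with them.

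**Figure D3:**
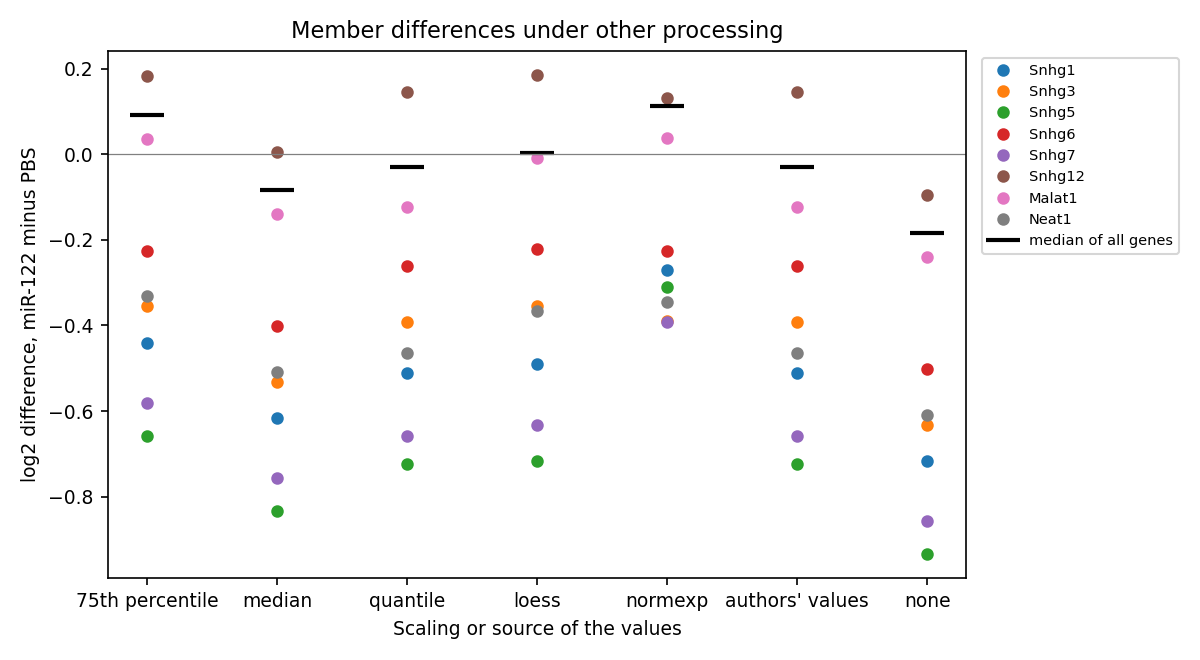
Log2 difference, miR-122 minus PBS, of the 8 measured genes (points) under 5 ways of scaling or correcting the signals, in the authors' deposited log2 values and without scaling; the black bars are the median of all genes. Snhg12 lies highest in each column, the spread between genes narrows with normexp, and without scaling all points fall below 0.

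Of 14 further noncoding host genes listed, 6 had a probe, and 5 of these were lower on the miR-122 array, with a median difference of -0.27, where 39.7% of all genes were lower. Of the 6, 2 were lower by more than the spread between probes, and with normexp 3 were lower, with a median of -0.10. Dancr, a noncoding host gene, had signals of 83.2 on the miR-122 array and 167 on the PBS array and was 1.66-fold lower after scaling. Mir17hg, the host of a microRNA cluster controlled by Myc, had 210 on the miR-122 array and 396 on the PBS array and was 1.56-fold lower. Snhg16 and Snhg18 both differed by -0.27, and a second probe of Snhg16 by -0.85. Snhg18 was dim, with signals of 18.6 on the miR-122 array and 27.1 on the PBS array. With normexp Dancr was 1.28-fold and Mir17hg 1.40-fold lower, while Snhg18 differed by 0.12 and Snhg16 by -0.30. None of the 6 passed 2-fold.

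In the list of box C/D and box H/ACA core and assembly proteins, all 13 genes were measured and 12 were lower, with a median difference of -0.44, beside the 0.09 of all genes. Dkc1, which encodes dyskerin, the pseudouridine synthase of box H/ACA particles, had signals of 325 on the miR-122 array and 795 on the PBS array and was 2.02-fold lower, the only member of that list past 2-fold. That value lies at the limit: with normexp no member of the list was 2-fold lower, and with median scaling or no scaling 2 were. Nolc1, a nucleolar chaperone of these particles, was 1.80-fold lower, and the core protein genes Nop58 and Gar1 differed by -0.58 and -0.54.

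Protein-coding hosts and ribosomal protein genes, many of which have a pyrimidine start, had medians close to that of all genes. Among the Snhg windows above, only those of Snhg1, Snhg5 and Snhg12 held a marked run of pyrimidines. Of 35 protein-coding host genes, 12 were lower and 23 higher, with a median difference of 0.07; among the lower were Dkc1 and Nop56, which also belong to the particle proteins, and Rcc1, 1.66-fold lower, while Prrc2a was 1.43-fold higher. Of 82 ribosomal protein genes, 16 were lower and 66 higher, with a median of 0.09 and 0 past 1.5-fold. Rps12, at 0.50, was farthest from 0, and another of its probes gave 0.07; these genes have near-identical pseudogenes that a probe may share. Both medians turned negative with median scaling, quantile normalization, loess, the authors' values and no scaling.

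Among 13 nonsense-mediated decay factors, 5 were lower and 8 higher, with a median of 0.09, and the endonuclease gene Smg6 was 1.23-fold lower. Of 15 paraspeckle proteins, partners of Neat1, 7 were lower and 8 higher with a median of 0.02, and Taf15 differed by 0.59. Of 19 speckle and splicing proteins, 7 were lower and 12 higher with a median of 0.11. None of these 3 lists had a gene past 2-fold, and the sign of each median turned with median scaling. In the mTOR axis, which controls translation of mRNAs with a pyrimidine start, 10 of 18 genes were lower and 8 higher with a median of -0.07, and the inhibitors of mTOR signalling among them did not move one way. Sesn1 and Deptor were 2.44-fold and 2.31-fold lower, while Ddit4 and Akt1s1 were 1.78-fold and 1.48-fold higher. Deptor was dim, with signals of 19.5 on the miR-122 array and 54.7 on the PBS array. With normexp Deptor was 1.23-fold lower and Sesn1 2.05-fold lower. Akt1s1 was dim too, with signals of 30.6 on the miR-122 array and 25.1 on the PBS array. Its normexp difference was 0.31, and that of Ddit4 was 0.69.

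The small nucleolar RNAs hosted by the measured Snhg genes had no probe that could be matched and were not analysed here. Of 142 RefSeq small nucleolar RNA genes, 2 had a probe, and Snora74a differed by -0.44 and Snora47 by 0.34. Both had dim signals, of 16.1 to 28.9 on the miR-122 array and 26.5 to 27.6 on the PBS array. With normexp Snora74a differed by 0.03 and Snora47 by 0.29.

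Of 19 other long noncoding RNA genes listed, 9 cleared background on both arrays, of which 4 were lower and 5 higher, with a median of 0.26. Pvt1, the neighbour of Myc, was 1.60-fold lower with a second probe at 0.02, while Mir22hg was 1.78-fold higher. Over the 407 other genes that RefSeq calls long noncoding RNA, the median difference was 0.19 and 132 were lower. Lower by more than the spread between probes were 5 of the 8 genes described here and 45 of the 407; the difference between these sets was not tested, since the 8 genes were chosen with their values known.

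**Figure D4:**
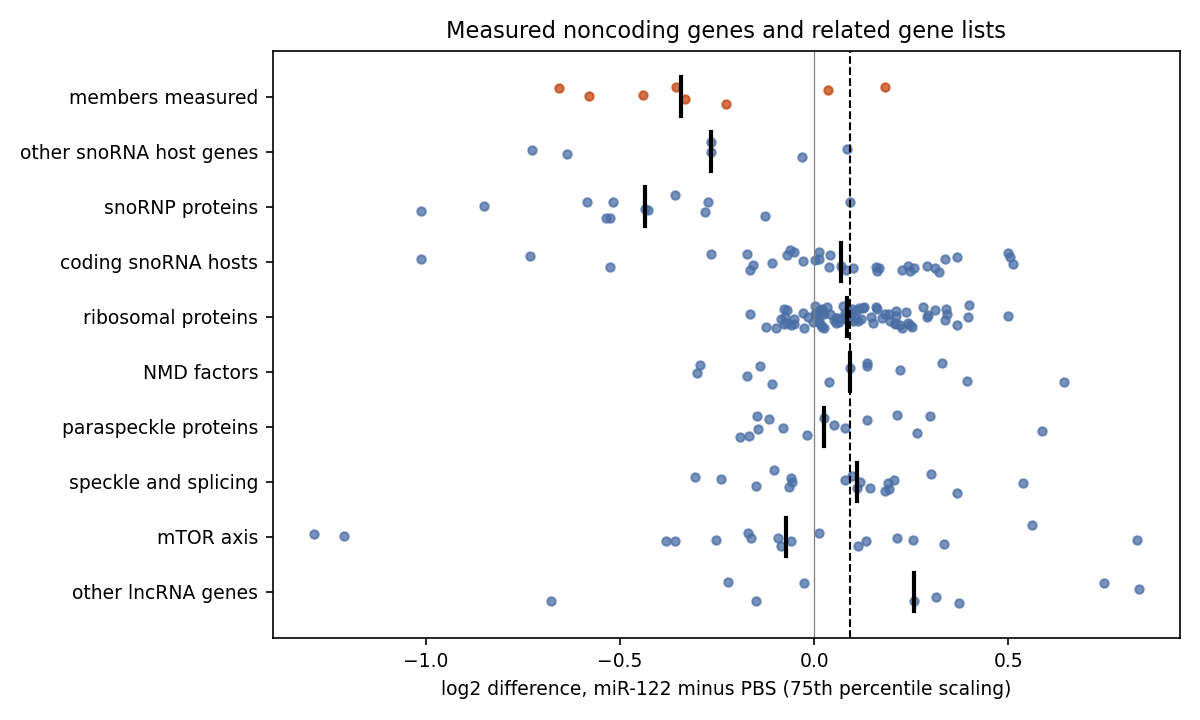
Log2 difference, miR-122 minus PBS, of the 8 measured noncoding genes (top row) and of genes of 9 related lists that were well above background on both arrays; black bars are list medians and the dashed line the median of all genes (0.09). The noncoding genes, other host genes and snoRNP proteins (small nucleolar ribonucleoprotein) lie to the left, with medians of -0.34, -0.27 and -0.44. Ribosomal proteins (0.09) cluster near the line. The row of other host genes includes Mir17hg, the host of a microRNA cluster. NMD stands for nonsense-mediated decay.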

How the data were processed

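Cy3-labelled RNA of 2 cultures went onto 1 Agilent array each. Per the file headers, the deposited intensities were made with Agilent Feature Extraction 11.0.1.1: processed signals are background-subtracted and detrended, with no normalization between arrays. The flags for well above background, saturation and outlier spots, which are other values, are deposited in the same files. The deposited log2 values of the authors have no stated normalization. Both columns have a median of 5.16. When sorted, they differ by at most 0.0094 with a median gap of 0, as quantile normalization would leave them. The authors' values and the quantile setting are therefore not separate checks. Each column correlated at 0.997 across probes with its own array's log2 signal and at 0.985 with that of the other. The columns are thus log2, not centred by gene, and run as labelled. For the miR-122 array 196 spots and for the PBS array 145 spots flagged as outliers were left out.

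Probes were named by matching their accessions without versions to RefSeq GRCm38.p6, used for names and gene order; the files' header names an older build, whose coordinates were not used. Of 39427 probes, 27232 matched 20659 symbols. Log2 signals were averaged over the spots of a probe and scaled by subtracting the 75th percentile of the array; the brightest probe that cleared background on either array stood for a gene. No test was possible with single arrays; genes are described by value and by fixed limits of 2-fold and 1.5-fold, beside the same count over all genes. The number of arrays limits the precision.

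The members, lists and limits were chosen with earlier results of these data known. The rule for named genes took every listed noncoding gene and up to 4 genes with the largest absolute difference in each of 10 related lists; a gene belonging to several lists counts in each. A result for a further gene under this rule is not reported here. Alternatives were other scalings, normexp with an offset of 50, loess with a span of 0.3, the authors' values, other probe filters and flagged spots kept. The fold counting was tested on simulated data. Tools were R 4.3.3 with limma 3.58.1 and Python 3.11.15 with numpy 2.4.6 and pandas 2.3.3.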

Additional observations from a re-analysis of the deposited data

How the results depend on the processing

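Of the 8 measured genes, 0 passed 2-fold in either direction under each of the 11 alternatives that were run; without replicate arrays these are descriptions, and no test lies behind them. With a limit of 1.5-fold in place of 2-fold, 1 gene was lower, Snhg5, and that count was 0 with normexp, 2 with quantile, loess, the authors' values or the other 75th percentile, 3 with median scaling and 5 without scaling. The median of the 8 genes ranged from -0.62 without scaling, an alternative chosen after seeing the data, to -0.29 with normexp. Snhg5 moved to -0.31 with normexp, whose offset compresses dim probes by construction. The sign of Malat1 turned with median scaling, quantile normalization, loess, the authors' values and no scaling, and that of Snhg12 to -0.09 without scaling; the other 6 genes stayed lower in each setting. Of 10 list medians, 7 turned sign in at least 1 setting and 3 did not: the other host genes, the particle proteins and the mTOR list. Settings that differ only in the choice among probes leave these genes at the same value, because each has 1 probe. Matching by a gene name column was not run, because the scanner files hold none. No paired analysis was possible because each group has 1 array. Leaving out a replicate was not possible for the same reason.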

Other observations

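Among the 407 other genes called long noncoding RNA by RefSeq, 19 passed 2-fold on the miR-122 array. Of the 407, 15 (3.69%) were higher, against 4.57% of all genes, and 4 (0.983%) lower, against 1.78% of all genes. They are named here after their values were seen. The largest values among bright probes belonged to 1700110I01Rik, with signals of 10769 on the miR-122 array and 5059 on the PBS array, 2.58-fold higher, or 2.44-fold with normexp, and to BC051226, 2.57-fold higher, or 2.32-fold with normexp. Gm6994 and I730030J21Rik gave nearly the same signals, 21210 and 21221 on the miR-122 array and 11647 and 11804 on the PBS array. Morrbid, which in mouse regulates the lifespan of short-lived myeloid cells, was 3.13-fold higher from a dim probe. Its signals were 33.3 on the miR-122 array and 12.9 on the PBS array, and with normexp it was 1.37-fold higher. Lockd, a noncoding neighbour of the cell cycle inhibitor gene Cdkn1b, was 2.24-fold lower, or 1.33-fold lower with normexp. With normexp, 5 of the 19 passed 2-fold, all of them higher, and 1 had no value for a probe well above background on both arrays.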
